A study of Mus musculus with 28 samples.

Results

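The genes described here are 39 interferon-stimulated genes, a list of symbols taken by name from the 53392 genes that the deposited files hold. RNA came from kidneys of male FVB mice subjected to ischemic injury. It was sequenced in cells labelled endothelial, drawn from digested kidney with microbeads against CD31, and in proximal tubular cells taken by microdissection. Both cell types have a sham group without injury and an untreated injured group. In a further 3 groups the injured mice received scrambled miRNA as a control, exosomes, or a miR-486-5p mimic. The series holds 28 samples, 3 in a group and 2 in each mimic group. The labels give no age, dose or time after injury. The estimated read counts of 16 libraries were analysed for the scrambled-miRNA, exosome and mimic groups, all of them injured. The sham and untreated groups enter only through the authors' deposited comparison tables, and the labels describe those samples as reanalyses of earlier ones.

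Type I interferons bind a receptor made of IFNAR1 and IFNAR2 and act through the kinases JAK1 and TYK2 on transcription factors, IRF9 among them, that bind a DNA element called the interferon-stimulated response element, or ISRE. Interferon gamma acts through IFNGR1 and IFNGR2, and its target genes often carry a gamma-activated site, or GAS. The induced genes hold up viral replication, sense viral RNA, or feed peptides to antigen presentation. In the kidney, injured tubules and infiltrating leukocytes are both known to express such genes.

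Both elements could be looked for in the promoters of the members, and the sequences below show what those elements look like in members chosen for having a match. RefSeq promoter windows of build GRCm38.p6, each running from 250 bases before to 50 bases after an annotated start, were held for 31 of the 39 members. The ISRE-like letters GAAANNGAAA, searched on both strands, were present in 20 of these 31 members (64.5%) and in 3.99% of 27025 genes with a window of this length. The GAS-like letters TTCNNNGAA, which read the same on both strands, were present in 9 of the 31 (29.0%) and in 9.55% of genes. An ISRE-like match overlapped a GAS-like one in 2 cases. Of the 32 ISRE-like matches, 17 began within the 100 bases before the start. Irf1, itself an interferon-induced transcription factor, had a GAS-like match and no ISRE-like one in its window. Cmpk2, Ifi35, Ifi44, Ifit2, Irf7, Irf9, Oasl1, Oasl2, Tap1 and Xaf1 also had a window and no ISRE-like match in it. A match is a description of the letters and not of a bound site.

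The whole windows of Isg15 and Irf1 follow, 5′ to 3′ on the strand of the gene, with the ISRE-like letters of Isg15 and the GAS-like letters of Irf1 in capitals. Isg15 lies on the minus strand at chr4:156200769-156201068 and Irf1 on the plus strand at chr11:53769764-53770063.
Isg15: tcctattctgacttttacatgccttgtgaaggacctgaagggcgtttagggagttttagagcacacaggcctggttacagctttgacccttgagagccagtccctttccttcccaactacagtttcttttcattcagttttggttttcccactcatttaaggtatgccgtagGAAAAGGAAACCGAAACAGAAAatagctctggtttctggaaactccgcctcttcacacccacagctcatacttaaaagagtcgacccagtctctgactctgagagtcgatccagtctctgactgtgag
Irf1: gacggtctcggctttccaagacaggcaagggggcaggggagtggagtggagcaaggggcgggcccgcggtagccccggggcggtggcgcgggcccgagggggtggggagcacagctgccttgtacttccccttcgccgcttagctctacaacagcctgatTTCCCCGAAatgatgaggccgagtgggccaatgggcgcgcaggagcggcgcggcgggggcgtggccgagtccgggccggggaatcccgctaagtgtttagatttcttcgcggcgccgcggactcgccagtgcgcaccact
The stretches around the ISRE-like matches of 5 genes that were higher in injured tubules in the authors' tables, and of 3 further members, follow in the same form. They lie at chr19:34640770-34640828 (Ifit1, plus strand), chr12:26456548-26456587 (Rsad2, minus), chr3:142559984-142560029 (Gbp3, plus), chr11:48871420-48871465 (Irgm1, minus), chr7:141010701-141010757 (Ifitm3, minus), chr4:40239799-40239838 (Ddx58, minus), chr8:71537572-71537617 (Bst2, minus) and chr3:142620589-142620628 (Gbp2, plus).
Ifit1: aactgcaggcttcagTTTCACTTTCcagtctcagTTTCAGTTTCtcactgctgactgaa
Rsad2: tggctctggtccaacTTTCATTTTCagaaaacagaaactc
Gbp3: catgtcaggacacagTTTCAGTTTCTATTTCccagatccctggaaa
Irgm1: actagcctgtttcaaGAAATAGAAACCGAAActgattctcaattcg
Ifitm3: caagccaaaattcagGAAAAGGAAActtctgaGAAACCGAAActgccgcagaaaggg
Ddx58: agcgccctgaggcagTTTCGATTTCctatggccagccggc
Bst2: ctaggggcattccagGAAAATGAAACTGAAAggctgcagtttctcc
Gbp2: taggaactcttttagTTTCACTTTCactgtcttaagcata
In Ifit1, Rsad2, Gbp3, Ddx58 and Gbp2 the match lay on the strand opposite to the gene. In Ifitm3 both matches lay past the annotated start, at bases 2 and 19 counted from 0 there, and the match of Ddx58 began at base 2.

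Depth ran from 8.27 to 25.3 M estimated reads per library. The tubular mimic libraries had 25.3 and 23.7 M, against 8.58 to 13.3 M in the other tubular libraries. The endothelial mimic libraries had 14.2 and 24.1 M, against 8.27 to 13.6 M in the other endothelial libraries. In both cell types, mimic and depth therefore cannot be told apart. The 10 endothelial markers summed to 394 to 923 TPM (transcript abundance scaled for length and library size) in the endothelial libraries and to 22.95 to 65.0 in the tubular ones, and the 10 proximal tubule markers to 196 to 1882 and 1092 to 4677. The libraries labelled endothelial also held markers of other cells: the 5 thick ascending limb markers summed to 3588 to 13760 TPM there, against 117 to 492 in tubular libraries, and the 10 macrophage markers to 84.3 to 250.4, against 7.21 to 66.0. Exosome replicate 1 of the endothelial libraries stood apart with the 1882 TPM of proximal tubule markers, where the other 7 had 196 to 1191. In such bulk libraries, fewer cells of a type and less RNA per cell cannot be told apart.

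Interferon-stimulated genes were expressed in both cell types and were higher in the endothelial libraries. In every comparison between the cell types, cell type and isolation by microbeads or microdissection cannot be told apart. Of 38 members that passed the filter on low counts, 33 (86.8%) were higher in endothelial than in tubular libraries and none was lower at an adjusted p under 0.05, by edgeR's quasi-likelihood test over all 16 libraries with Benjamini-Hochberg adjustment. Over all 17143 genes tested, 66.2% passed and 36.3% were higher in the endothelial libraries. The median log2 fold of the members was 2.28, against 0.0648 over all genes. Mx1 did not pass the filter, and the 5 members tested and not called were Cmpk2, Irgm1, Ifi35, Gbp3 and Igtp.

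**Figure D1:**
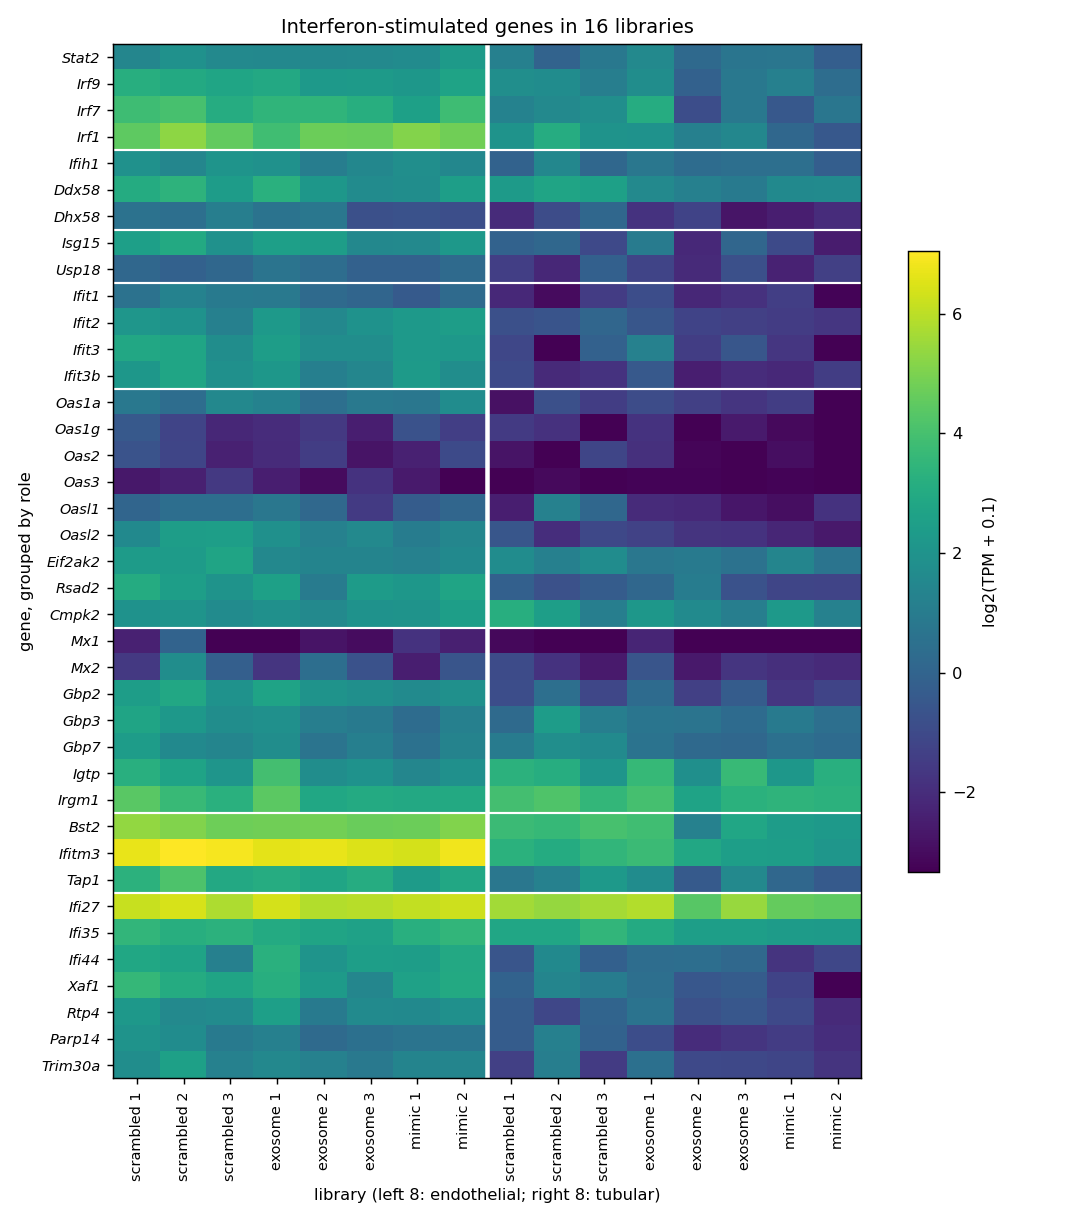
Each row is 1 of the 39 genes, grouped by role with white lines between roles, and each column is 1 of the 16 libraries; colour gives log2(TPM + 0.1). Most rows are brighter in the left 8 columns (endothelial) than in the right 8 (tubular), while Irgm1, Igtp and Cmpk2 overlap between both sides.

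By level, Ifitm3, Ifi27 and Bst2 led the list over the 16 libraries. Ifitm3, a membrane protein that blocks viral entry, had 82.8 to 132.6 TPM in the 8 endothelial libraries with a median of 105, and 4.30 to 13.4 in the 8 tubular ones with a median of 7.86. The 2 ranges did not overlap, and the log2 fold was 3.70 (SE 0.17, adjusted p = 1.28e-09). Ifi27, an interferon-induced protein of the mitochondrial membrane, had 54.6 to 85.8 TPM in endothelial and 20.4 to 58.6 in tubular libraries, with a log2 fold of 0.94 (SE 0.16, adjusted p = 0.000147). Its ranges overlapped. Bst2, the tether that holds budding virus on the cell surface, had 25.4 to 41.6 TPM in endothelial and 2.29 to 16.5 in tubular libraries, and its log2 fold was 1.74 (SE 0.23, adjusted p = 1.01e-05). The order by mean TPM over the 8 libraries was Ifitm3 (106.0), Ifi27 (70.2), Bst2 (30.6) and Irf1 (26.75) in endothelial cells, and Ifi27 (38.8), Irgm1 (12.2), Bst2 (9.50) and Ifitm3 (8.18) in tubular cells. The ranges of Bst2 and Irf1 overlapped in endothelial cells, and those of Irgm1, Bst2 and Ifitm3 in tubular cells. Those lower ranks are thus not set beyond the spread of the libraries. Ifi27 lay wholly above Bst2 and Irf1 in endothelial cells, and wholly above Irgm1, Bst2 and Ifitm3 in tubular cells. In each endothelial library Ifitm3 exceeded Ifi27, although their ranges overlapped.

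All 4 signal transducers and transcription factors were higher in the endothelial libraries. Irf1, which binds interferon response elements and is induced early by interferon gamma, had 14.6 to 39.3 TPM in endothelial libraries (median 25.9) and 0.617 to 8.49 in tubular ones (median 3.29). No endothelial library was as low as a tubular one, and the log2 fold was 3.35 (SE 0.31, adjusted p = 4.10e-07). Irf7, the factor that amplifies type I interferon genes, had 5.87 to 16.5 TPM in endothelial and 0.452 to 8.39 in tubular libraries. Its ranges overlapped through a single tubular library, exosome replicate 1, as the other 7 tubular libraries reached 3.43 at most. Its log2 fold was 2.21 (SE 0.32, adjusted p = 3.20e-05).

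The IFIT proteins, which bind viral RNA lacking host cap marks, had the highest median fold of any role. All 4 were called, with log2 folds from 2.84 to 3.93 and a median of 3.42. Ifit3 had 3.26 to 7.27 TPM in endothelial libraries and 0 to 2.24 in tubular ones, where 2 libraries had no read, and its log2 fold was 3.66 (SE 0.55). Ifit2 had 2.19 to 5.36 TPM against 0.216 to 0.967, with a log2 fold of 3.18 (SE 0.23). Reads of Ifit3 and of its near copy Ifit3b can be split between them by the authors' counting, so the level of either one is uncertain.

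The RNA sensors were called in 3 of 3. Ddx58, which encodes RIG-I, had 3.08 to 10.3 TPM in endothelial and 1.85 to 6.55 in tubular libraries, an overlap that goes with its small log2 fold of 0.57 (SE 0.14, adjusted p = 0.00265). Ifih1, which encodes MDA5, had 2.03 to 3.99 against 0.756 to 2.72 TPM and a log2 fold of 1.68 (SE 0.19). In the ISG15 system, Isg15, a ubiquitin-like protein joined to other proteins, had 2.74 to 7.84 against 0.0750 to 1.90 TPM and a log2 fold of 2.88 (SE 0.43, adjusted p = 3.45e-05). Usp18, which removes it, had 0.826 to 1.48 against 0.0984 to 0.816 TPM and a log2 fold of 2.33 (SE 0.32). Its lowest endothelial library was just above its highest tubular one.

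Of the 9 OAS, PKR and nucleotide enzymes, 8 were called. Oasl2, an OAS-like protein, had the largest fold among them at 3.52 (SE 0.23, adjusted p = 1.68e-08), from 1.97 to 5.52 TPM in endothelial and 0.0655 to 0.576 in tubular libraries. Rsad2, which encodes viperin, had 1.90 to 8.17 against 0.334 to 1.96 TPM and a log2 fold of 2.80 (SE 0.23). Cmpk2, its neighbour on chromosome 12 and a nucleotide kinase, was the exception. It had 2.86 to 5.57 TPM in endothelial and 2.05 to 9.07 in tubular libraries, and its log2 fold of 0.25 (SE 0.22) did not pass (adjusted p = 0.321).

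The GTPases were the role with the lowest share of calls, 3 of the 6 tested. Gbp2, a guanylate-binding protein, had 3.03 to 7.38 TPM in endothelial and 0.213 to 1.26 in tubular libraries, and a log2 fold of 2.91 (SE 0.30, adjusted p = 1.08e-06). Irgm1 and Igtp, immunity-related GTPases of the interferon gamma response, had overlapping ranges in the cell types and negative folds. Irgm1 had 7.16 to 21.85 TPM against 6.30 to 18.2 (log2 fold -0.21, SE 0.22, adjusted p = 0.397). Igtp had 2.60 to 15.3 against 3.45 to 12.6 (log2 fold -0.74, SE 0.34, adjusted p = 0.0705). DESeq2 called Igtp as lower in the endothelial libraries (-0.74, SE 0.33, adjusted p = 0.0395), the single member it called in that direction, and 34 members as higher. Of all 17114 genes to which it gave an adjusted p, DESeq2 called 11586, and 6315 of these were higher in the endothelial libraries. Among the remaining members, Ifi44, Trim30a, Parp14 and Rtp4 were called with log2 folds of 2.93, 3.29, 2.29 and 2.85, and Ifi35 (0.30, SE 0.14) was not. Mx1, whose product traps incoming viral particles, had at most 0.900 TPM in any library, and neither of the tubular mimic libraries held a read. A count of 0 in those libraries allows up to 0.118 and 0.126 CPM, a limit that covers counting error only.

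**Figure D2:**
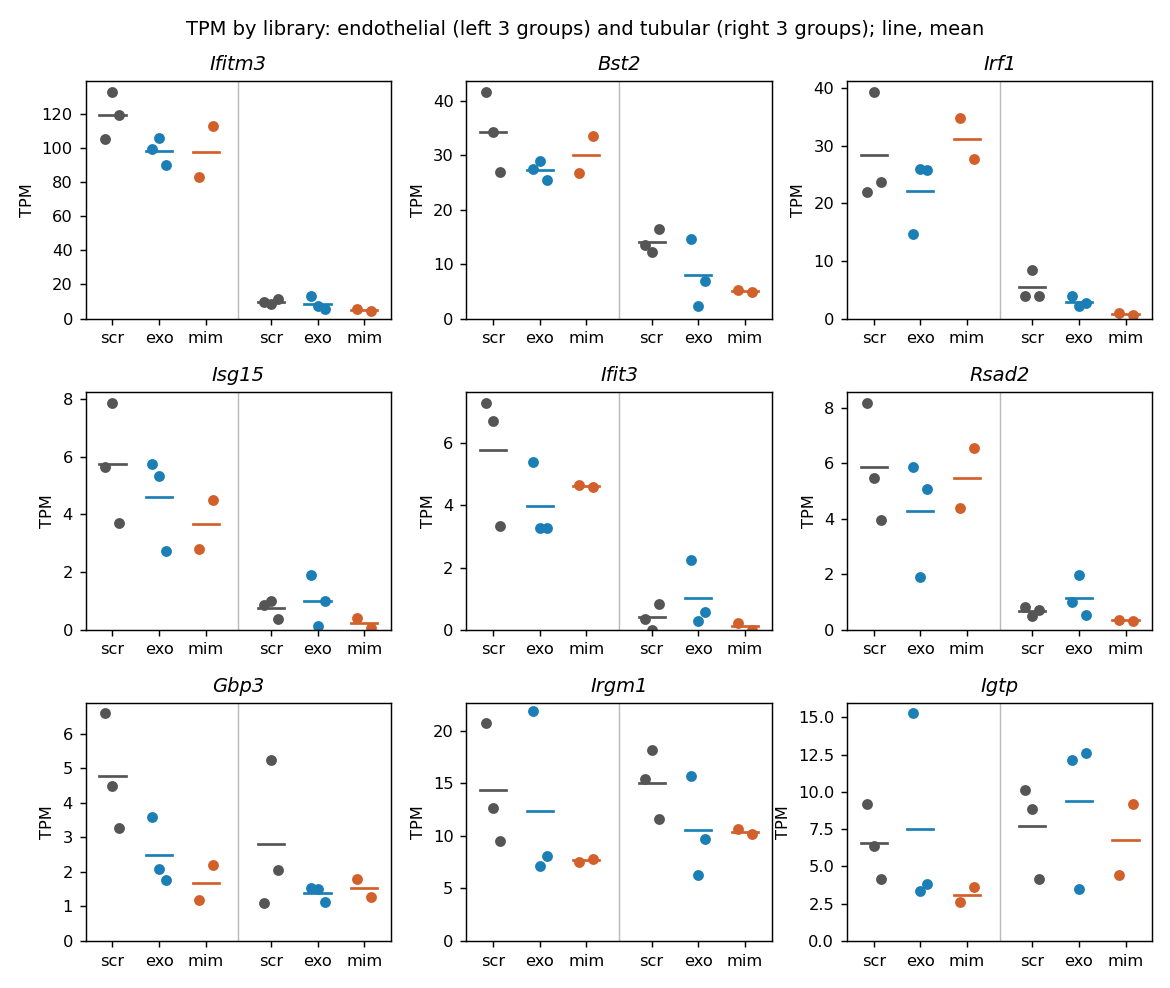
Each panel gives 1 gene, with TPM on the vertical axis from 0; points are libraries of injured mice given scrambled miRNA (scr), exosomes (exo) or the mimic (mim), and lines are group means. Ifitm3, Bst2, Irf1, Isg15, Ifit3 and Rsad2 sit higher in the 3 endothelial groups on the left, while Irgm1 and Igtp do not, and both tubular mimic libraries lie at the foot of the tubular points for Ifitm3, Irf1 and Rsad2.

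Markers of other cells moved with the same comparison. All 10 endothelial markers, all 10 macrophage markers (median log2 fold 2.66), 9 of 9 tested lymphocyte markers, 5 of 6 tested neutrophil markers and all 5 thick ascending limb markers were higher in the endothelial libraries, and all 10 proximal tubule markers were lower. Each of the 10 macrophage markers had reads in each of the 16 libraries, whereas between 1 and 9 of the 10 lymphocyte markers had reads in a tubular library. The part of these cells in the higher interferon gene levels was not tested.

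Among the treatments the question was whether exosomes or the miR-486-5p mimic shifted these genes away from the level under scrambled miRNA. In tubular cells 31 of 34 tested members had a negative fold for the mimic over scrambled miRNA. None of them passed edgeR's test across all genes, while DESeq2 called 5, all lower. In endothelial cells 28 of 38 had a negative fold for the mimic, and the difference between cell types was tested by interaction terms.

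Irf1 shows the tubular pattern most plainly. It had 3.88, 8.49 and 3.93 TPM with scrambled miRNA, 3.86, 2.21 and 2.72 with exosomes, and 1.01 and 0.617 with the mimic. Both mimic libraries lay below all 6 others. The log2 fold of mimic over scrambled miRNA was -2.77 (SE 0.62, adjusted p = 0.123) and of mimic over exosomes -2.21 (SE 0.61, adjusted p = 0.321). In endothelial cells Irf1 had 22.0, 39.3 and 23.8, then 14.6, 26.0 and 25.8, then 34.8 and 27.7 TPM in the same order of groups, which overlapped, with a log2 fold for the mimic of 0.18 (SE 0.35).

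Ifitm3 had 9.76, 8.35 and 11.3 TPM in tubular libraries with scrambled miRNA, 13.4, 7.37 and 5.57 with exosomes, and 5.36 and 4.30 with the mimic. The mimic libraries were again the lowest, with a log2 fold over scrambled miRNA of -0.91 (SE 0.33, adjusted p = 0.226). Bst2 had 13.4, 12.3 and 16.5 with scrambled miRNA, 14.6, 2.29 and 6.89 with exosomes, and 5.19 and 4.80 TPM with the mimic. Its mimic libraries lay below the scrambled-miRNA libraries and within the range of the exosome libraries, and its log2 fold over scrambled miRNA was -1.56 (SE 0.51, adjusted p = 0.199). Tap1, the transporter that carries peptides to MHC class I, had 1.62, 2.25 and 4.63, then 3.20, 0.657 and 2.89, then 1.01 and 0.662 TPM, with a log2 fold of -1.99 (SE 0.55, adjusted p = 0.157).

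Parp14, an ADP-ribosyl transferase, lay below scrambled miRNA in both treated groups. It had 0.710, 2.16 and 0.873 TPM with scrambled miRNA, 0.443, 0.146 and 0.206 with exosomes, and 0.257 and 0.157 with the mimic, and neither treated group reached the scrambled-miRNA libraries. The log2 folds were -1.46 (SE 0.40, adjusted p = 0.0644) for exosomes and -1.98 (SE 0.46, adjusted p = 0.125) for the mimic. Gbp7, a guanylate-binding protein, had 1.90, 3.37 and 2.99 TPM, then 1.43, 1.07 and 1.00, then 1.33 and 1.13. Each treated group lay below the scrambled-miRNA libraries, while the mimic libraries lay within the exosome range. The log2 folds over scrambled miRNA were -1.08 (SE 0.28, adjusted p = 0.0551) for exosomes and -1.0 (SE 0.31, adjusted p = 0.183) for the mimic.

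Several members rested on few reads in tubular cells. The reads below are not scaled to depth, which was highest in the mimic libraries. Isg15 had 11, 11.1 and 4.0 estimated reads with scrambled miRNA, 29.0, 2.0 and 14.0 with exosomes, and 9.9 and 2.0 with the mimic. Oasl1, an OAS-like gene, had 4.0, 41.0 and 13.0, then 8.0, 2.0 and 3.0, then 3.0 and 5.0 reads. Its log2 folds of -2.33 (SE 0.96) for exosomes and -3.35 (SE 1.15) for the mimic did not pass (adjusted p = 0.174 and 0.210). Xaf1 had no read in mimic replicate 2 and 7.0 in replicate 1, against 12.0 to 28.5 with scrambled miRNA. At these counts a difference of a few reads is not detectable.

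Over the list, none of 34 tested members was called for tubular mimic against scrambled miRNA by edgeR, where 0.0201% of all 14913 genes were. At an unadjusted p under 0.05 there were 14 members, all lower with the mimic, a share of 41.2% against 16.3% of all genes. DESeq2 called 5 of the 34, all lower (Irf1, Parp14, Tap1, Xaf1 and Bst2), and 5.19% of all genes. In 20 of the 34 both mimic libraries lay below all 3 scrambled-miRNA libraries in log2 CPM (counts scaled to library size), as 15.9% of all genes did. The log2 fold was negative for 31 of 34 members (91.2%) and 52.8% of all genes, with a median of -0.96 against -0.03.

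For tubular mimic against exosomes, none of 34 members was called by edgeR, nor was any other gene (0.0%), and 8 members had an unadjusted p under 0.05 (all lower with the mimic, 12.4% of all genes). DESeq2 gave an adjusted p for 3 of the members and called none of them, and it called 4.0% of the genes to which it gave one. In 14 members the mimic libraries lay wholly below the exosome libraries, and in 20.6% of all genes. The median log2 fold was -0.98, against -0.03 over all genes. This comparison and the preceding one share the mimic libraries.

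For tubular exosomes against scrambled miRNA, none of the 34 members was called, although 5.13% of all genes were. At an unadjusted p under 0.05 there were 4 members, all lower, against 24.8% of genes. DESeq2 called 2, Parp14 and Gbp7, both lower, and 13.3% of genes. Wholly lower with exosomes were 4 members, Ddx58, Eif2ak2, Gbp7 and Parp14, where 14.5% of genes were. The median log2 fold of -0.10 was near that of all genes (-0.02). Without scrambled-miRNA replicate 1, Gbp7 was called for exosomes, and 4 members, Irf1, Gbp3, Parp14 and Gbp7, were called lower for the mimic. The share of all genes called without that library is not given here. The 9 tubule injury markers summed to 373 TPM in that library and to 1221 and 2037 in replicates 2 and 3. Their part in these calls was not tested.

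**Figure D3:**
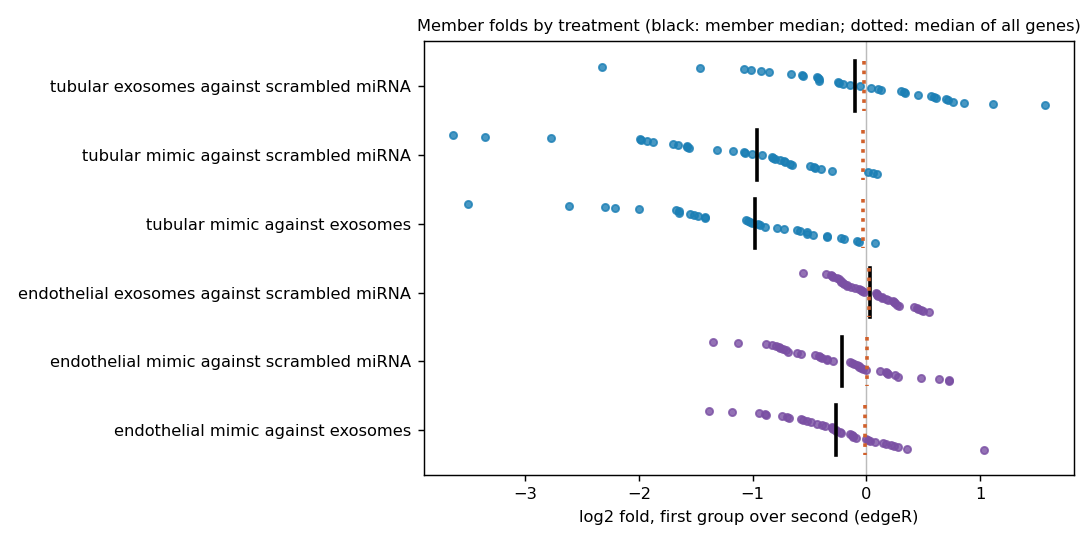
Each point is the log2 fold of 1 member in 1 treatment comparison (edgeR, first-named group over the second), tubular in blue and endothelial in purple; black bars are member medians and dotted bars the medians of all genes tested. Nearly all points of both tubular mimic comparisons lie left of 0, with medians of -0.96 and -0.98, while the endothelial points lie between -1.38 and 1.04.

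In endothelial cells, exosomes against scrambled miRNA gave no call among 38 members by edgeR, and none over all 16316 genes (0.0%). A single member, Parp14, had an unadjusted p under 0.05 (11.4% of all genes), DESeq2 called no member and 2.53% of genes, and only Eif2ak2, the kinase PKR, was wholly lower with exosomes (5.96% of genes). The median log2 fold was 0.03, against 0.02 over all genes. Ifitm3 had 105, 133 and 119 TPM with scrambled miRNA and 99.5, 105 and 90.2 with exosomes. Its TPM lay toward lower values with exosomes. Its fitted log2 fold from counts with TMM scaling was 0.14 (SE 0.20, adjusted p = 0.865), so that the scales differ in direction. This was not confined to Ifitm3. The summed TPM of the list averaged 418.6 with scrambled miRNA and 341.8 with exosomes, with overlapping libraries. The mean log2 CPM of the members was 3.668 and 3.689. Group differences in TPM thus need not match the fitted folds. In this comparison too, markers of other cells moved, with none called by edgeR. All 10 macrophage markers had negative folds (median -0.28, 1 at an unadjusted p under 0.05). So did all 6 tested neutrophil markers (median -1.45, 4 at that p) and all 9 tubule injury markers (median -1.22, 5). All 5 thick ascending limb markers (median 1.27, 3) and all 9 tested lymphocyte markers (median 0.85, 1) had positive folds. The part of these markers was not tested.

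For endothelial mimic against scrambled miRNA, edgeR called none of 38 members and none of all genes (0.0%). There were 7 members with an unadjusted p under 0.05, 6 of them lower (19.5% of all genes), and DESeq2 called Gbp3 as lower and 8.31% of genes. The groups were apart in 13 members (45.2% of all genes), 12 of them lower with the mimic (21.8% of genes) and Ifit2 higher. All 6 tested GTPases had negative folds, with a median of -0.80. Gbp3 had 6.62, 4.50 and 3.27 TPM with scrambled miRNA, 3.58, 2.10 and 1.78 with exosomes, and 1.19 and 2.19 with the mimic, and its log2 fold for the mimic was -1.13 (SE 0.34, adjusted p = 0.13). The overall member median was -0.21, against 0.01 for all genes. Markers of other cells moved in the same comparison, with none called by edgeR: all 10 proximal tubule markers had negative folds (median -1.89, 2 at an unadjusted p under 0.05), all 9 tubule injury markers did (median -3.0, 8 at that p), and all 5 thick ascending limb markers had positive folds (median 1.97, 4 at that p). The 10 macrophage markers had a median of -0.13, with 5 folds negative and 5 positive, and 3 at that p, all lower. All 6 tested neutrophil markers had negative folds (median -0.97, 0 at that p). All 9 tested lymphocyte markers had positive ones (median 0.87, 1 at that p). Their part in the values of the members was not tested.

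For endothelial mimic against exosomes none of 38 members was called by edgeR (0.0% of genes) or by DESeq2 (0.0307%), and 4 had an unadjusted p under 0.05 (4.05% of genes), all lower. Groups were apart in 12 members (20.3% of genes), 11 of them lower with the mimic (10.1%), and Ifi35 was higher. The median was -0.27, against -0.01. All 10 proximal tubule markers again had negative folds (median -1.99, 5 at an unadjusted p under 0.05), and their part was not tested. Irgm1 had 20.8, 12.7 and 9.51 TPM with scrambled miRNA, 21.85, 7.16 and 8.12 with exosomes, and 7.52 and 7.84 with the mimic.

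Whether the treatments acted unlike in the 2 cell types was tested by interaction terms. None of 38 members was called for the exosome effect by edgeR (0.0% of 17143 genes), 1 had an unadjusted p under 0.05 (7.78% of genes), and DESeq2 called none (0.187% of genes). For the mimic effect none was called by edgeR (0.0%), but 10 had an unadjusted p under 0.05 (15.5% of genes), all with a higher fold in endothelial than in tubular cells, and DESeq2 called 3, Irf1, Xaf1 and Ifit2 (4.1% of genes). The median difference was 0.82 for the mimic, against 0.07 over all genes, and 0.10 for exosomes. Irf1 differed by 2.93 (SE 0.74, adjusted p = 0.139) and Ifit2 by 1.94 (SE 0.54, adjusted p = 0.152).

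The summed level of the 39 genes gives each library a single value. In tubular cells it was 147, 157.5 and 151 TPM with scrambled miRNA, 174, 68.55 and 110.1 with exosomes, and 79.97 and 73.1 with the mimic. The mimic libraries lay below the scrambled-miRNA libraries and above the lowest exosome library. In endothelial cells it was 428, 477 and 351 TPM, then 400.5, 319 and 306, then 316 and 389, and all groups overlapped. Ifitm3, Ifi27 and Bst2 hold much of these sums. TPM carries no TMM scaling, so these sums need not move as the fitted folds do.

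Markers of other cells also differed among the tubular libraries. The 10 macrophage markers summed to 28.6, 49.1 and 66.0 TPM with scrambled miRNA, 25.6, 13.9 and 11.4 with exosomes, and 13.7 and 7.21 with the mimic. The 10 endothelial markers summed to 65.0, 30.1 and 49.4, then 61.9, 36.2 and 39.2, then 29.9 and 22.95. The 9 tubule injury markers summed to 373, 1221 and 2037, then 262, 118 and 111, then 149 and 76.5. These 3 lists were lowest in mimic replicate 2. For the mimic over scrambled miRNA, the 4 neutrophil markers tested had a median log2 fold of -3.93 (3 at an unadjusted p under 0.05). All 10 proximal tubule markers had positive folds (median 0.76, 1 at that p), and they summed to 4677 and 4242 TPM with the mimic against 4598, 2662 and 1092 with scrambled miRNA. The part of any of these lists in the lower interferon gene levels was not tested.

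**Figure D4:**
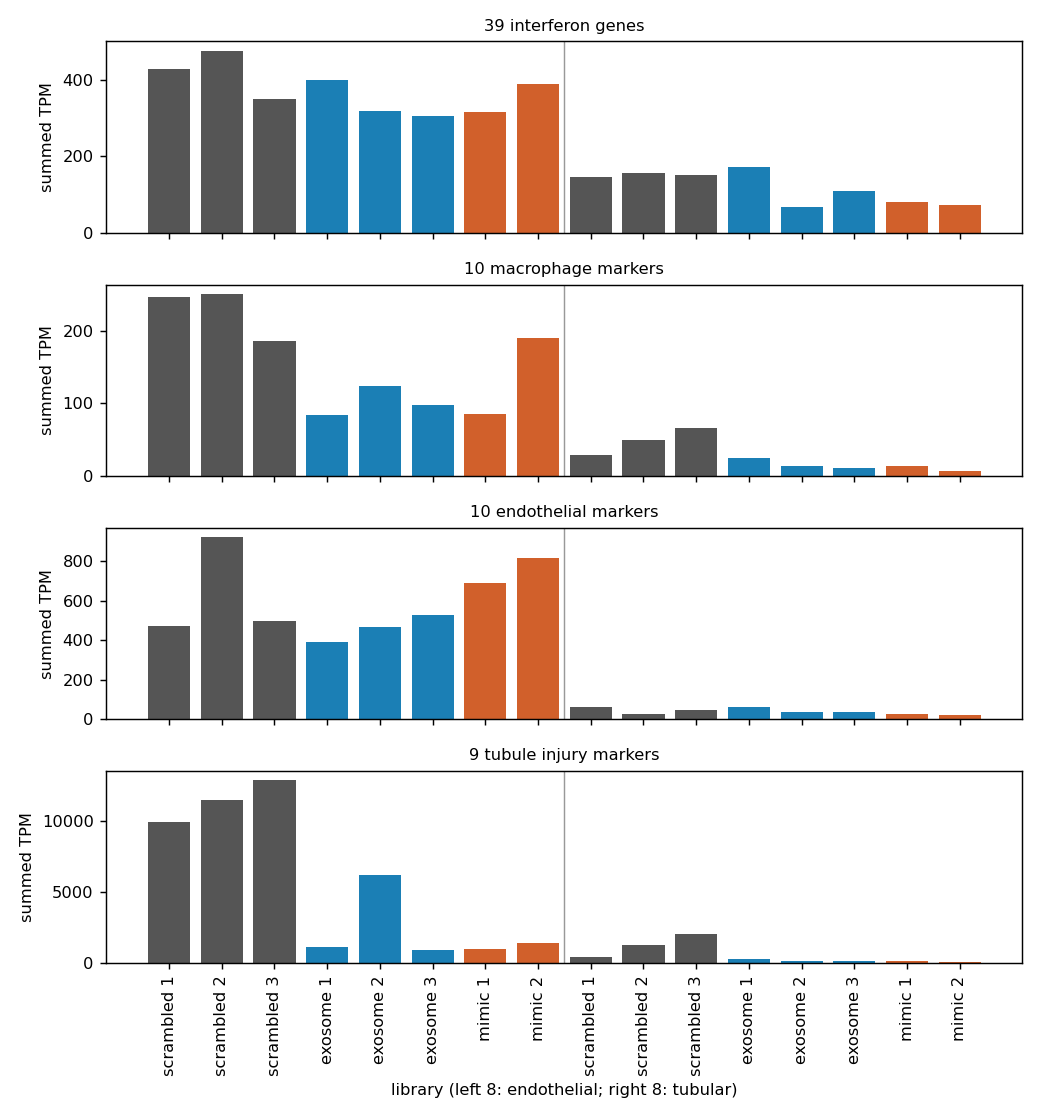
Bars give summed TPM per library from 0 for 39 interferon genes and for 3 marker lists, with scrambled miRNA in grey, exosomes in blue and the mimic in orange, endothelial libraries left of the line and tubular libraries right of it. Tubular mimic libraries, at 79.97 and 73.1 TPM for the interferon genes, are also low for macrophage, endothelial and injury markers.

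The effect of injury itself could be read only from the authors' deposited tables, which give a fold and a p-value per gene and no value per library. In tubular cells of untreated injured mice against sham, the authors' deposited table called 7 of 36 members with an adjusted p under 0.05, all higher with injury, and 20.2% of all genes. The 7 were Oasl1 (log2 fold 3.49), Rsad2 (2.68), Ifit1 (1.63), Isg15 (1.53), Irgm1 (1.49), Gbp3 (1.42) and Ifitm3 (1.31), all in the authors' deposited table, with adjusted p from 0.000601 for Oasl1 to 0.0387 for Ifit1. The share of members called, 19.4%, was near that of all genes. The median log2 fold of the 39 members in the authors' deposited table was 0.18, against 0.01 over all genes. Stated standard errors there were wide for Ifit1 (1.43), Oasl1 (1.01) and Isg15 (0.95). In that authors' deposited file, 8 of 9 tubule injury markers and 4 of 5 neutrophil markers were higher, and 5 of 10 proximal tubule markers were lower. Whether these took part was not tested.

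In endothelial cells the authors' deposited table of untreated injury against sham called 3 of 39 members, all higher, and 4.41% of all genes. They were Gbp3 (log2 fold 1.97, adjusted p = 0.0051), Oasl1 (2.36, adjusted p = 0.0281) and Isg15 (1.48, adjusted p = 0.0302), as the authors' deposited table gives them. Irf1 was not called in either authors' deposited table of untreated injury against sham.

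Untreated injured tubules were also set against each treated group, with the untreated libraries shared by the 3 tables and taken from the earlier samples, so that treatment and the origin of the samples cannot be told apart. Against scrambled miRNA, the authors' deposited table called 8 of 36 members, 7 of them higher in untreated injury, and 17.8% of all genes. Against exosomes, the authors' deposited table called 13 of 37 members (35.1%), 11 of them higher in untreated injury, and 30.9% of all genes. Against the mimic, the authors' deposited table called 20 of 37 members (54.1%), all higher in untreated injury, and 22.9% of all genes. The member medians in these authors' deposited tables were 0.13, 0.35 and 0.97 in that order, against 0.00, 0.01 and 0.04 over all genes.

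Individual genes differed in how these 3 tables ran. For Rsad2 the authors' deposited tables gave log2 folds of 3.75 over scrambled miRNA (SE 0.86), 3.70 over exosomes (SE 0.86) and 5.18 over the mimic (SE 0.97). Untreated injury was thus higher than the scrambled-miRNA control for Rsad2 as well. Irgm1 was alike in this, at 1.68, 1.91 and 2.01 in the authors' deposited tables, and Ifitm3 had 0.97, 0.93 and 1.81. Oasl1 had 1.74 (SE 1.23), 5.38 (SE 0.99) and 5.02 (SE 1.17) in the authors' deposited tables, with a smaller fold over scrambled miRNA than over either treatment. Irf1 was not called over scrambled miRNA (0.91, adjusted p = 0.0812) and was called over exosomes (1.89, adjusted p = 0.0035) and over the mimic (3.79, adjusted p = 2.49e-06) in the authors' deposited tables. Isg15 had 1.38 over scrambled miRNA and 3.77 over the mimic and was called in both of these authors' deposited tables. Ifi44 ran the other way, at -1.18 over scrambled miRNA and -1.30 over exosomes in the authors' deposited tables. Igtp was lower in untreated injury than with exosomes (-1.04, adjusted p = 0.0463) in the authors' deposited table.

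**Figure D5:**
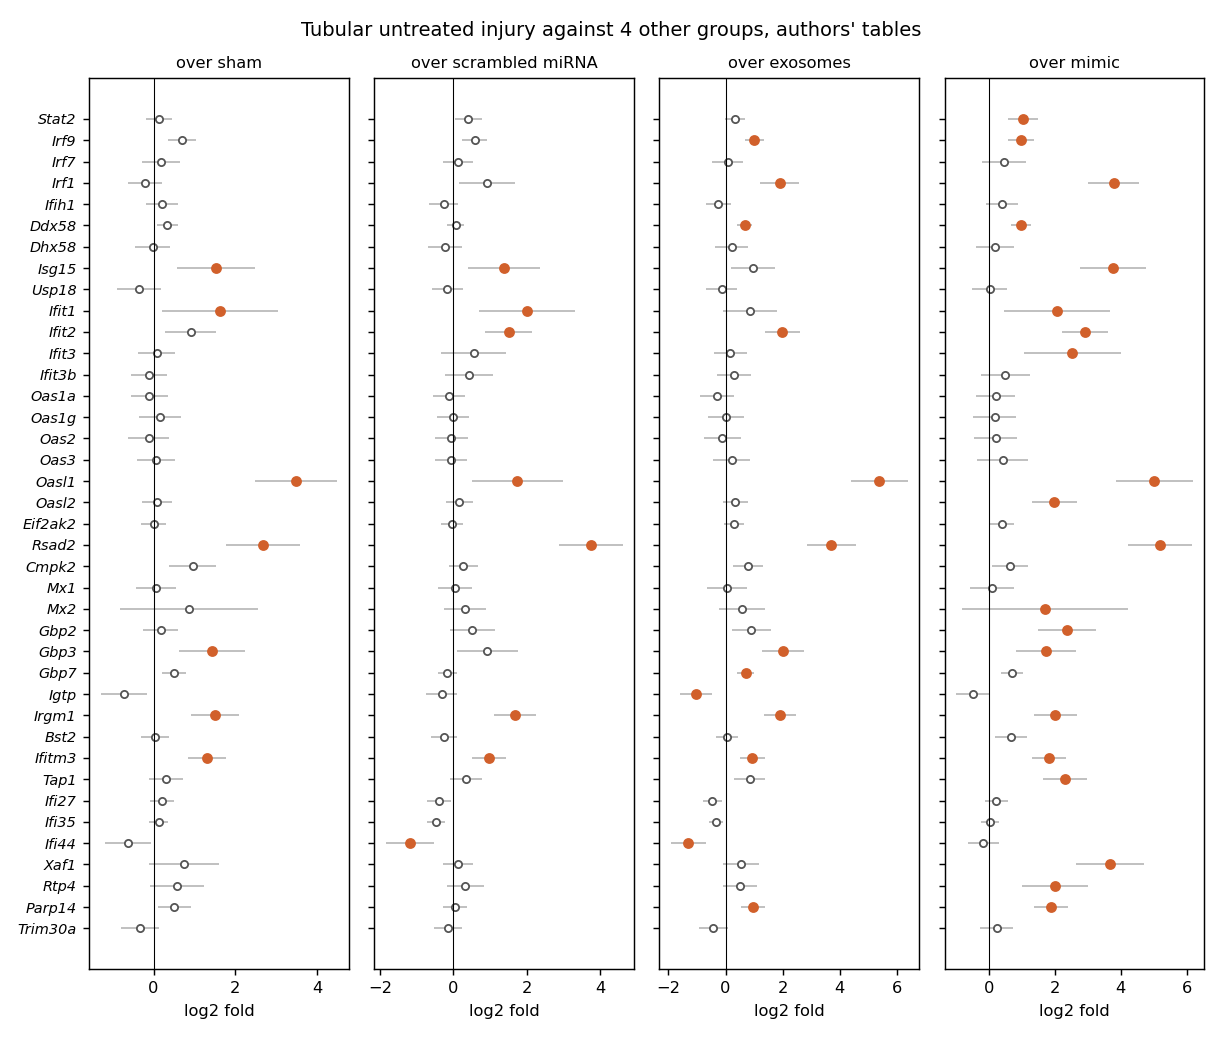
Each row is 1 of the 39 genes and each panel a comparison of untreated injured tubules with another tubular group, from the authors' deposited tables; points are log2 folds, lines reach 1 standard error either way, and orange points have an adjusted p under 0.05. Over the mimic 20 genes are orange, all right of 0, against 7 over sham and 8 over scrambled miRNA. The exosome panel lies between the mimic and scrambled-miRNA panels in this count. Of all genes, 22.9%, 20.2%, 17.8% and 30.9% were called over the mimic, sham, scrambled miRNA and exosomes. The 4 panels share the untreated libraries.

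In endothelial cells few members were called when untreated injury was set against the treated groups. Here too the untreated samples are the earlier ones, so that treatment and origin cannot be told apart. Against scrambled miRNA the authors' deposited table, made with DESeq2, called none of 39 members and 0.757% of all genes, with 6 members at an unadjusted p under 0.05. Against exosomes, the authors' deposited table called 2, Ifi27 (-0.81) and Ifi44 (-1.77), both lower in untreated injury, and 3.77% of genes. Against the mimic, the authors' deposited table called 3, Ifi27 (-0.77), Ifi44 (-1.85) and Oas1a (-1.64), again lower in untreated injury, and 10.2% of genes. Ifi44 was lower in untreated injury than with exosomes in both cell types, and differences between the cell types were not tested in the authors' tables.

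Treated injury against sham was given for exosomes and the mimic. The sham samples are also earlier ones, so that treated injury and the origin of the samples cannot be told apart here. In endothelial cells the authors' deposited table for exosomes called 7 of 39 members, all higher than sham (17.9%), and 6.73% of all genes: Oas3 (log2 fold 2.21), Gbp2 (1.60), Isg15 (1.45), Ifitm3 (1.42), Ifih1 (1.16), Bst2 (0.67) and Ifi27 (0.62). The authors' deposited table for the mimic called 3, Oas2 (1.89), Ifitm3 (1.13) and Ifih1 (0.97), all higher, and 11.6% of genes. Of the 10 macrophage markers, 8 and 9 were higher than in sham as well in these authors' deposited tables, with medians of 2.31 and 2.37. Their part was not tested. In tubular cells the authors' deposited table for exosomes called 1 of 35 members and 11.2% of all genes. That member was Irf1, at -2.45 (SE 0.70, adjusted p = 0.000882) in the authors' deposited table. The authors' deposited table for the mimic also called 1 of 36, again Irf1 as lower than sham (adjusted p = 1.75e-06), and 1.03% of all genes. Folds in that authors' deposited table lie close to 0 for all members, between -0.09 and 0.02, and give no size.

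The upstream genes of the pathway, 120 further genes in a list of ligands, receptors, kinases, sensors, inhibitors and other induced genes, were followed in the same fits. Ligand transcripts were almost absent. None of the 20 ligands passed the filter on low counts, and 17 had no read in any library. Ifnb1, the type I interferon made by many cells on sensing viral RNA, had 3.0 and 2.0 reads in 2 endothelial scrambled-miRNA libraries and none in the other 14. Ifng, made by T cells and natural killer cells, had 1.0 to 21.0 reads in each endothelial library and none in the 8 tubular libraries, where 0 allows up to 0.118 to 0.350 CPM. Ifnk had 1.0 read in a single tubular library.

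Receptors were well expressed in both cell types. Ifnar1 had 8.96 to 33.4 TPM in endothelial and 5.95 to 23.8 in tubular libraries (log2 fold 0.61, SE 0.08, adjusted p = 1.12e-05). Ifngr1 had 15.04 to 46.8 against 11.6 to 28.8 (0.42, SE 0.15, adjusted p = 0.0211). Socs1, the feedback inhibitor of JAK kinases, had 0.237 to 0.975 against 0 to 0.0826 TPM (4.02, SE 0.57). Tlr3, the endosomal sensor of double-stranded RNA, had 2.94 to 5.67 against 0.416 to 3.42 TPM (2.12, SE 0.16). Cxcl10, a chemokine induced by interferon, had 1.16 to 13.7 against 0.0692 to 5.01 TPM (1.88, SE 0.45). In all, 78 of 97 pathway genes tested were called between the cell types, 70 higher and 8 lower in the endothelial libraries, beside 66.2% of all genes called and 36.3% called higher.

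For tubular exosomes against scrambled miRNA, 5 of 83 pathway genes tested were called (6.02%), a share near the 5.13% of all genes. Lower with exosomes were Mavs, the mitochondrial adaptor of RIG-I and MDA5 (log2 fold -0.78, SE 0.13, adjusted p = 0.0243), Irf8, a factor of myeloid cells (-1.20, SE 0.20, adjusted p = 0.0251), and Ifnlr1, the interferon lambda receptor (-1.78, SE 0.41, adjusted p = 0.0440). Mavs had 13.8, 10.9 and 12.5 TPM with scrambled miRNA and 6.19, 5.79 and 5.34 with exosomes, which did not overlap. Higher with exosomes were Iigp1 (1.88, SE 0.45, adjusted p = 0.0469) and Gbp8 (2.15, SE 0.52, adjusted p = 0.0485), both interferon-inducible GTPases. Iigp1 had 0.633, 0.634 and 0.592 TPM with scrambled miRNA and 1.91, 0.905 and 2.44 with exosomes. No pathway gene was called by edgeR in the other 5 treatment comparisons. At an unadjusted p under 0.05, the tubular mimic gave 25 of 83 (30.1%) against scrambled miRNA and 22 (26.5%) against exosomes. All genes had 16.3% and 12.4% there. The endothelial mimic gave 16 of 97 (16.5%) against scrambled miRNA and 9 (9.28%) against exosomes, where all genes had 19.5% and 4.05%. Endothelial exosomes against scrambled miRNA gave 6 of 97 (6.19%), where all genes had 11.4%. The pathway medians were -0.19, -0.36 and -0.27 for tubular exosomes over scrambled miRNA, mimic over scrambled miRNA and mimic over exosomes. The medians of all genes were -0.02, -0.03 and -0.03 in that order.

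In the authors' deposited table of untreated injured tubules against sham, 15 of 92 pathway genes were higher and 1 was lower, a share of 17.4% where 20.2% of all genes were called. Ccl5, a chemokine (5.26, SE 1.08), Ifngr2, the other chain of the interferon gamma receptor (1.73, SE 0.40), and Slfn2 (2.29, SE 0.75) were among the higher ones in the authors' deposited table, as was Ifngr1 (0.94, adjusted p = 0.0153). Cxcl10 was not called there, but was higher in untreated injury than with exosomes (3.54, SE 0.83) and the mimic (4.21, SE 0.97) and lower with exosomes than in sham (-4.32, SE 0.82) in the authors' deposited tables. In these tables with treated groups, treatment and the origin of the samples cannot be told apart. In endothelial cells, Cxcl10 was higher in untreated injury than in sham (2.26, SE 0.62, adjusted p = 0.00112) in the authors' deposited table.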

How the data were processed

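Polyadenylated RNA was sequenced, per the labels' protocols. Salmon 0.13.1, DESeq2 and build GRCm38 are named in the submitters' processing notes. The authors deposited, for 16 libraries, estimated counts and TPM per transcript, and 12 comparison tables with a log2 fold, a p-value and a mean normalised count (a signal, not used in the text). Estimated counts and TPM were summed per gene and the counts rounded. Libraries of a group are labelled as separate, but nothing says whether a library number marks 1 mouse across cell types.

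edgeR 4.0.16 (R 4.3.3) was run with TMM scaling and a filter on low counts (minimum count 10, minimum total 15), by its quasi-likelihood test with Benjamini-Hochberg adjustment over all genes and a threshold of 0.05. Tubular, endothelial and all libraries were fitted separately. DESeq2 1.42.0 and other settings were alternatives. Non-overlap used log2 CPM with a prior count of 2. Scripts were tested on simulated data.

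The members and lists were chosen with earlier results of these data known. Genes were named when called (at most 12 per comparison, by adjusted p), when among the 2 highest of a role by mean TPM, or when without reads in a whole group; Eif2ak2 and those listed as lost, gained or wholly lower were named after their values were seen. A gene of the pathway list is not reported here.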

Additional observations from a re-analysis of the deposited data

How the results depend on the processing

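DESeq2 called 2 members for tubular exosomes against scrambled miRNA, 5 for tubular mimic against scrambled miRNA, 1 for endothelial mimic against scrambled miRNA and 3 for the mimic effect between cell types, where edgeR called 0. With no filter on low counts, edgeR called 4, 9 and 4 members in tubular cells (exosomes against scrambled miRNA, mimic against scrambled miRNA, mimic against exosomes), 4 and 2 in endothelial cells (mimic against scrambled miRNA, mimic against exosomes), and 1 and 8 for the exosome and mimic effects between cell types. With the title's replicate number as a replicate block, 1 member, Gbp3, was called for endothelial mimic against scrambled miRNA, and with the library number as the replicate block 30 in place of 33 were called between the cell types. These samples share only a number: deviations of same-numbered samples correlated at -0.0702 to 0.241 over 14 pairs by title and at -0.13 to 0.109 over 7 pairs by library number. Leaving out each library in turn gave 0 to 1 members for tubular exosomes and 0 to 4 for tubular mimic against scrambled miRNA, 0 to 1 for the mimic effect between cell types (Irf1, without endothelial exosome replicate 1), and 31 to 34 between the cell types. At an adjusted p under 0.01 the authors' deposited tables called 4 members for untreated tubular injury against sham, 2 against scrambled miRNA, 7 against exosomes and 13 against the mimic. In endothelial cells they called 1 for untreated injury against sham, 1 against exosomes, 1 against the mimic, 2 for exosomes against sham and 0 for the mimic against sham. The share of all genes called at 0.01 is not given here, so these counts cannot be set against it. The member median was -0.44 in place of -0.21 for endothelial mimic against scrambled miRNA without mimic replicate 2, and 0.44 in place of 0.10 for the exosome effect between cell types without tubular exosome replicate 1. The cause of these differences was not tested. The share or number of all genes called is given above for DESeq2 and is not given for the other settings. Counts of members under those settings therefore cannot be read as particular to the members. No result changed its direction under the alternatives run. In tubular cells, members with few reads limit what can be detected.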

Other observations

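Some members were high in exosome replicate 1 of a cell type, and these were named after their values were seen. In endothelial cells that library had 15.3 TPM of Igtp, against 2.60 to 9.17 in the other 7, and in tubular cells exosome replicate 1 had 8.39 TPM of Irf7, against 0.452 to 3.43 in the other 7. Ifit3 was likewise 2.24 TPM there, against 0 to 0.834 in the other tubular libraries. Scrambled-miRNA replicate 2 was the highest library for more members, 13 of 39 in endothelial and 14 of 39 in tubular cells, than exosome replicate 1, with 6 and 11.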
